A study of Mus musculus with 2 samples.

Results

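Potassium channel genes were read in 2 total RNA sequencing libraries of the mouse midbrain at 14.5 days of embryonic development. The members are the protein-coding genes whose symbol starts with Kcn, in classes from Kcna to Kcnv, with Kcnj8 and Kcnj13 left out by the rule that chose them. This gave 92 members of 21461 protein-coding genes outside the mitochondrial genome, of which 65 encode pore-forming subunits, 10 encode modifier subunits and 17 encode auxiliary subunits or regulators. Both libraries are of strain B6NCrl, with no treatment and no altered allele in the labels. Each came from a single pup, on different collection days, and they are called embryo 1 and embryo 2. The sex field reads pooled, although 1 pup gave each midbrain. There is 1 group, so nothing could be tested between groups. Levels are means ± SD over both embryos (n = 2), and the spread covers these 2 animals only.

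Potassium channels let potassium leave the cell down its gradient, and so set the resting potential, end the action potential and limit repetitive firing. Voltage-gated, inward rectifier, calcium-activated and sodium-activated channels are built from pore subunits that each contribute a single pore loop, while subunits of the 2-pore-domain family carry a pair of loops and give background (leak) currents. Modifier subunits of the Kcnf, Kcng, Kcns and Kcnv classes form no channel alone but join mainly Kcnb subunits. Auxiliary subunits of the Kcnab, Kcne, Kcnip and Kcnmb classes change the trafficking and gating of the pore subunits. In the developing brain, early potassium currents are known to act on the membrane potential of progenitors and of new neurons before synapses mature.

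The tables assigned 32716141 counts to annotated rows in embryo 1 and 30185472 in embryo 2, with 3.15% and 3.32% on ERCC spike-in RNAs. All 6 midbrain genes listed (Otx2, En1, En2, Pax7, Tal2 and Gata3) reached 1 TPM in each embryo, and Otx2 stood at 99.91 TPM in embryo 1 and 76.34 TPM in embryo 2. None of 4 forebrain genes and none of 4 hindbrain Hox genes reached that level in both, and the highest single value among them was 1.24 TPM, for Emx1 in embryo 2. The libraries differed in markers of some non-neural cells and in cell cycle genes. Mesenchyme markers summed to 401.85 TPM in embryo 1 and 10.12 TPM in embryo 2, with all 7 higher in embryo 1 and Lum at 27.58 TPM against 0.08 TPM. Cell cycle genes summed to 243.78 and 116.59 TPM in the same order, with all 6 higher in embryo 1. Markers of later neurons summed to 313.15 TPM in embryo 1 and 319.53 TPM in embryo 2.

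Every pore-forming and modifier member carries the potassium selectivity filter, a short stretch of the pore loop that strips water from potassium ions. It was searched for in the coding sequences as 5 codons: threonine or serine, then valine, isoleucine, leucine or threonine, then glycine, then tyrosine, phenylalanine or leucine, then glycine. All 65 pore members and all 10 modifiers held it, none of the 17 auxiliary members did, and 356 of all 21461 protein-coding genes did (1.66%). The pattern was narrowed after the data were seen, so this split is a description of the pattern and no test of it. Each of the 14 Kcnk genes held it at 2 places, and no other member held more than 1. The windows below stand for the families the results turn on and come from the filter-bearing transcript with the highest TPM, which for Kcnu1 is at 0. They show the 5 filter codons in capitals with 5 codons on each side. They are read in the 5′ to 3′ direction of the gene in assembly GRCm38.
Kcnd2, plus strand, exon junction within chr6:21217391-21714156: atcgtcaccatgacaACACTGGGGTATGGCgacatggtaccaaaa
Kcna3, plus strand, chr3:107037596-107037640: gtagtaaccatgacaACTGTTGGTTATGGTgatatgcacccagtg
Kcnc1, plus strand, chr7:46427958-46428002: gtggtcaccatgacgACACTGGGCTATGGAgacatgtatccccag
Kcnb2, plus strand, chr1:15710031-15710075: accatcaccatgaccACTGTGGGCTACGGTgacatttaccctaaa
Kcnh2, minus strand, chr5:24325540-24325584: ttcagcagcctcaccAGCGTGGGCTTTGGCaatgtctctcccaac
Kcnma1, minus strand, chr14:23528398-23528442: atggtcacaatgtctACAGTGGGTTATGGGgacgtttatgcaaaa
Kcnt1, plus strand, chr2:25894352-25894396: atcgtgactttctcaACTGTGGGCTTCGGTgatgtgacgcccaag
Kcnn1, minus strand, chr8:70850642-70850686: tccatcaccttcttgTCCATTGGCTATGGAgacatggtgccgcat
Kcnj3, plus strand, chr2:55437612-55437656: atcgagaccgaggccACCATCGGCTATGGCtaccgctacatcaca
Kcnk10 first loop, minus strand, exon junction within chr12:98490043-98496214: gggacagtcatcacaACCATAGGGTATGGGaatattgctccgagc
Kcnk10 second loop, minus strand, exon junction within chr12:98436333-98440634: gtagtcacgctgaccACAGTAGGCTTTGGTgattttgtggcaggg
Kcnk1 first loop, plus strand, exon junction within chr8:125995793-126025034: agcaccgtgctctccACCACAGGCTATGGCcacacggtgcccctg
Kcnk1 second loop, plus strand, chr8:126025314-126025358: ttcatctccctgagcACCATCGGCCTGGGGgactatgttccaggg
Kcnu1, plus strand, chr8:25881375-25881419: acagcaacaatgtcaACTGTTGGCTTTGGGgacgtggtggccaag
Over 33 such windows from 29 members, the first filter codon was for threonine in 27 and for serine in 6, and the serine ones all belonged to the Kcnh and Kcnn classes. The fourth codon was for tyrosine in 22, for phenylalanine in 10 and for leucine in 1, the second loop of Kcnk1.

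A member was called detected when its TPM, a level corrected for transcript length, was 1 or more in each embryo, and 55 of 92 members were. That is 59.8% of the members, next to 59.5% of all protein-coding genes, so the share detected lay at the background. The levels did not: 16 members (17.4%) had a mean TPM of at least 10, next to 41% of protein-coding genes, and no member had 100, next to 7.19%. The median of mean TPM was 2.26 over the members and 4.66 over all protein-coding genes, and among the detected it was 5.02 and 20.3. The members together summed to 507.57 TPM in embryo 1 and 519.65 TPM in embryo 2, which is 0.0664% of the protein-coding TPM. Most of this lay in few genes, with 13.1% in the highest member, 34.4% in the highest 5 and 50.7% in the highest 10.

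**Figure D1:**
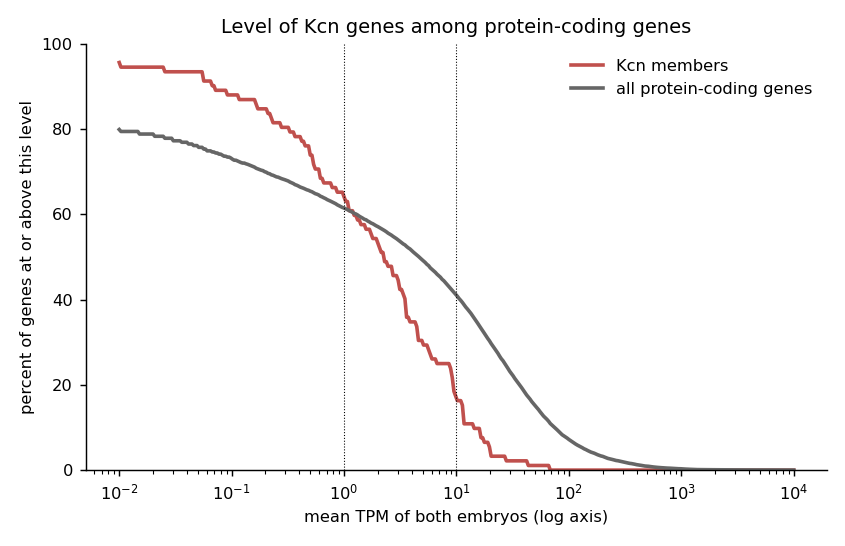
Percent of genes (vertical axis) at or above each mean TPM (horizontal log axis) for the 92 Kcn members and for all 21461 protein-coding genes, which include the members. The curves lie close together near 1 TPM, and at 10 TPM the members stand at 17.4% and all protein-coding genes at 41%.

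Of the functional groups, voltage-gated pore genes held the largest part of the summed level, 188.68 TPM in embryo 1 and 189.66 TPM in embryo 2, with 23 of 30 detected. Auxiliary subunits and regulators came next with 172.86 and 181.07 TPM and 11 of 17 detected, a share of 34.1% in embryo 1 and 34.8% in embryo 2. The 2-pore-domain genes summed to 66.83 TPM in embryo 1 and 63.34 TPM in embryo 2 from 5 detected of 14. Calcium-activated and sodium-activated pore genes summed to 48.64 and 54.37 TPM in the same order, with 7 of 8 detected. This group counts Kcnu1 (Slo3), at 4.96 TPM in embryo 1 and 6.16 TPM in embryo 2. Kcnu1 was placed there as a relative of the BK gene Kcnma1 and not by its gating. Inward rectifiers, with 17.06 and 18.29 TPM and 5 of 13 detected, and modifiers, with 13.50 and 12.92 TPM and 4 of 10 detected, were the lowest groups. The order of the 6 groups was the same in both embryos, and no 2 neighbouring groups overlapped. On protein-coding transcripts alone the mean sums were 156 TPM for voltage-gated and 170 TPM for auxiliary genes, which turns the order of these groups round. In a bulk sample, fewer cells of a type and less RNA per cell cannot be told apart, so these sums say nothing of levels in single cells.

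**Figure D2:**
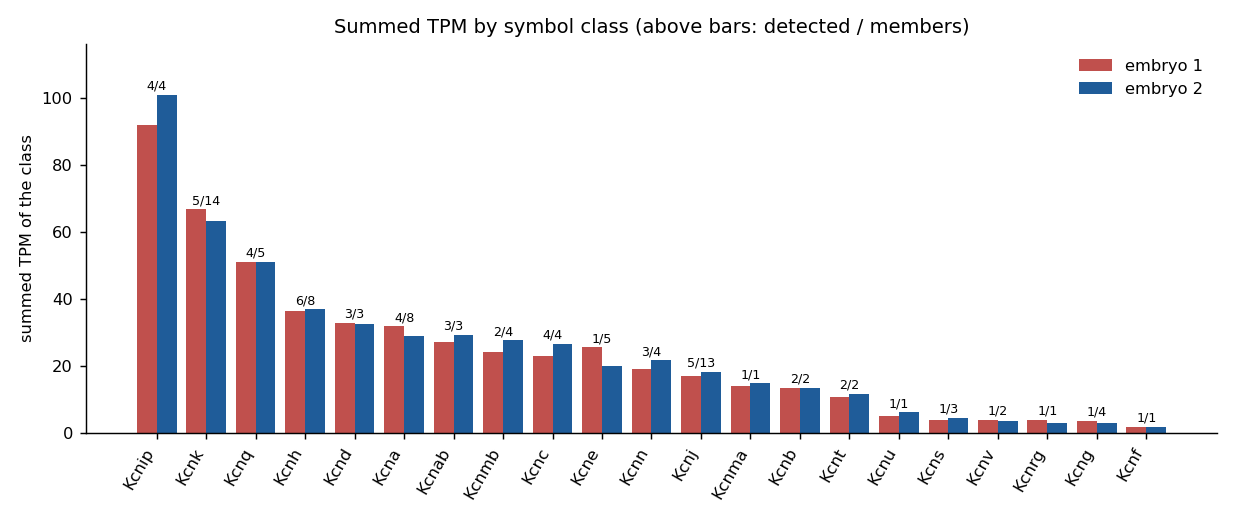
Summed TPM (vertical axis, from 0) of each symbol class (horizontal axis) in embryo 1 (left bar) and embryo 2 (right bar), with detected and total members above the bars. Kcnip has the highest bars, 92.02 and 101.09 TPM, and Kcnf the lowest, 1.87 and 1.66 TPM.

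The highest member was Kcnip1, at 61.65 TPM in embryo 1 and 73.18 TPM in embryo 2 (mean 67.4 ± 8.15, n = 2). It encodes KChIP1, a calcium-binding protein that joins Kv4 channels, and lies on chr11:33629339-33993152. Its class, Kcnip, summed to 92.02 TPM in embryo 1 and 101.09 TPM in embryo 2, and all 4 of its members were detected. Kcnip4 followed with 16.72 and 15.68 TPM, Kcnip3 with 10.54 and 8.35 TPM, and Kcnip2, known as a cardiac KChIP as well as a neural one, with 3.11 and 3.88 TPM. The Kv4 pore genes these proteins serve, the Kcnd class of rapidly inactivating A-type channels, summed to less: 32.95 TPM in embryo 1 and 32.42 TPM in embryo 2. Kcnd2 stood at 18.85 TPM in embryo 1 and 20.33 TPM in embryo 2, Kcnd3 at 12.75 and 10.31 TPM, and Kcnd1 at 1.35 and 1.78 TPM. In both embryos Kcnd2 lay above Kcnd3, and Kcnd1 far below both. The other partners of Kv4 channels, the peptidase-like proteins Dpp6 and Dpp10, which are no Kcn genes, stood at 56.13 and 19.00 TPM in embryo 1 and at 57.81 and 19.57 TPM in embryo 2.

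As divided over the annotated transcripts, the level of Kcnip1 lay almost wholly at 1 start. RefSeq (build GRCm38.p6) gives 3 promoter windows for the gene, each from 250 bases before to 50 bases after a start. Transcripts that begin within 500 bases of the middle one, Kcnip1-201, Kcnip1-202 and Kcnip1-203, summed to 60.76 TPM in embryo 1 and 72.38 TPM in embryo 2. Those at the start farthest upstream summed to 0.89 TPM in embryo 1 and 0.79 TPM in embryo 2. No transcript in the tables began at the third, so no level could be assigned to it and its use could not be read. The windows of the used and the little-used start are shown with each CG pair in capitals, both on the minus strand.
Kcnip1 used start, chr11:33843637-33843936: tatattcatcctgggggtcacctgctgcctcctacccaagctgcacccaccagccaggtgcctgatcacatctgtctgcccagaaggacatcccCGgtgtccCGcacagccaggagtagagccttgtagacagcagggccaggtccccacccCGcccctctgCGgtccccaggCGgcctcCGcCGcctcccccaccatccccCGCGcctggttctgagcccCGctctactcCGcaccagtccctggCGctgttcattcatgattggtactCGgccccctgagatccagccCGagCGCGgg
Kcnip1 start farthest upstream, chr11:33993144-33993443: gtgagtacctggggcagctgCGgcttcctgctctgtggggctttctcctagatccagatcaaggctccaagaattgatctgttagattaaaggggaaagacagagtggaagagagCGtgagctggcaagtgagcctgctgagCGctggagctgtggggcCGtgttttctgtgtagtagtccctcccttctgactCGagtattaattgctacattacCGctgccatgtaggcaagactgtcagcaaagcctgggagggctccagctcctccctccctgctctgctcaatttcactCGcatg
The used window held 16 CG pairs and the other held 7. Of 32851 promoter windows of this length in the table, 94.6% held at least 1 CG pair, 33.0% held at least 16, and the median was 7. At the level of transcripts, Kcnip1-201 stood at 38.16 TPM in embryo 1 and 46.58 TPM in embryo 2, Kcnip1-203 at 19.94 and 22.36 TPM, and Kcnip1-202 at 2.66 and 3.44 TPM. Kcnmb1, a BK beta subunit gene known from smooth muscle, lies within the Kcnip1 gene on the other strand, at chr11:33963013-33973641, and was near 0 with 0.15 TPM in embryo 1 and 0.31 TPM in embryo 2.

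The Kcnq class encodes Kv7 channels, among them those of the M-current, the slow potassium current that muscarinic receptors shut and that limits repetitive firing. The class summed to 50.97 TPM in embryo 1 and 51.19 TPM in embryo 2. Kcnq3, an M-current subunit gene, stood at 3.03 TPM in embryo 1 and 4.13 TPM in embryo 2, Kcnq1, the cardiac and epithelial member, at 1.01 and 1.55 TPM, and Kcnq5 at 0.93 and 1.06 TPM. Kcnq5 thus missed detection by its value in embryo 1. Kcnq1 was close to the limit, and its exons overlap those of Kcnq1ot1, an imprinted antisense RNA at 2.30 TPM in embryo 1 and 2.11 TPM in embryo 2, on 121 of 4093 bases. No source used here says whether the libraries keep the strand, and reads of overlapping genes on opposite strands cannot be told apart. In all, 19 members overlap an exon on the other strand, by 1 base or more. The 8 members whose expected counts (estimated reads) were not whole in both embryos are all among them.

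Among the other voltage-gated pore genes, the Kv1 class (Kcna, channels that in adult neurons sit at axons) had 4 of 8 members detected. Kcna3 stood at 12.68 TPM in embryo 1 and 10.16 TPM in embryo 2, Kcna6 at 10.90 and 11.29 TPM, Kcna4 at 4.63 and 4.07 TPM, and Kcna5 at 2.86 and 2.03 TPM. The genes of the main adult axonal subunits were low: Kcna1 stood at 0.53 TPM in embryo 1 and 0.70 TPM in embryo 2, and Kcna2 at 0.33 and 0.67 TPM. Neighbours on the chromosome could therefore differ widely. On chr3, Kcna3 averaged 11.4 TPM, Kcna2, 63.1 kb away, 0.50 TPM, and Kcna10, a further 68.1 kb on, had no counts. On chr6, Kcna6 averaged 11.1 TPM, Kcna1, 61.9 kb away, 0.615 TPM and Kcna5, 105 kb beyond it, 2.45 TPM.

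Of the Kv2 genes (delayed rectifiers of the cell body), Kcnb2 stood at 10.26 TPM in embryo 1 and 9.88 TPM in embryo 2. Of the Kv3 genes, whose channels allow fast firing, Kcnc1 stood at 10.92 TPM in embryo 1 and 11.84 TPM in embryo 2. Kcnc4 stood at 5.93 and 7.50 TPM, and Kcnc2 at 3.25 and 2.97 TPM. Kcnc1 was highest in both embryos. In the Kcnh class of EAG, ERG and ELK channels, 6 of 8 members were detected. Its highest members were the ERG gene Kcnh2, at 10.82 TPM in embryo 1 and 8.13 TPM in embryo 2, the ELK gene Kcnh4, at 7.92 and 10.17 TPM, and the ERG gene Kcnh7, at 7.78 and 9.41 TPM. These 3 overlapped between the embryos and could not be ordered. Kcnh8 stood at 5.26 and 3.66 TPM, Kcnh5 at 2.02 and 2.24 TPM, Kcnh1 at 1.71 and 1.73 TPM, while Kcnh6, at 0.81 and 1.38 TPM, and Kcnh3, at 0.24 and 0.21 TPM, were not detected.

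Modifier subunits, which join Kcnb subunits, were low throughout. Kcnv1 stood at 3.91 TPM in embryo 1 and 3.63 TPM in embryo 2, Kcns2 at 3.20 and 2.76 TPM, Kcng1 at 2.43 and 1.55 TPM, and Kcnf1 at 1.87 and 1.66 TPM. The other 6 were not detected: Kcns1, Kcng2, Kcng4, Kcns3, Kcng3 and Kcnv2 had mean levels of 1.09, 1.01, 0.275, 0.21, 0.065 and 0.055 TPM.

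The 2-pore-domain class was carried by few genes. Kcnk10, which encodes TREK-2, stood at 28.51 TPM in embryo 1 and 26.02 TPM in embryo 2 (mean 27.3 ± 1.76, n = 2). Kcnk2, which encodes the related TREK-1, stood at 19.14 and 15.19 TPM. Both are leak channels opened by stretch and by lipids, and Kcnk4 (TRAAK), the third gene of that group, was at 0.39 TPM in embryo 1 and 0.61 TPM in embryo 2. Kcnk1 (TWIK-1) stood at 10.08 and 12.97 TPM. The acid-sensitive TASK genes were lower, Kcnk3 at 3.81 TPM in embryo 1 and 5.16 TPM in embryo 2, and Kcnk9 at 2.59 and 1.93 TPM. The other 9 members of the class had mean levels from 0 to 0.555 TPM, the highest being Kcnk12. Kcnk2 shares 12.2% of its exon bases with an antisense gene, A430027H14Rik, at 5.96 TPM in embryo 1 and 8.24 TPM in embryo 2.

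Inward rectifiers, which pass current best near the resting potential, reached at most 6.01 TPM in embryo 1 and 5.56 TPM in embryo 2, for Kcnj3. Most of this lay on Kcnj3-202, at 4.37 TPM in embryo 1 and 4.58 TPM in embryo 2, with a coding sequence of 235 codons that holds the filter. The forms of 501 codons, Kcnj3-201 and Kcnj3-203, stood at 0.95 and 0.70 TPM in embryo 1 and at 0.98 and 0 TPM in embryo 2. Kcnj3 encodes GIRK1, a subunit of the channels that G proteins open. Its partners Kcnj9 (GIRK3) and Kcnj6 (GIRK2, a well-known gene of dopaminergic neurons) stood at 2.35 and 2.30 TPM in embryo 1 and at 3.07 and 3.01 TPM in embryo 2, and Kcnj5 (GIRK4) at 0.38 and 0.34 TPM. Of the strong inward rectifiers, Kcnj12 stood at 2.36 TPM in embryo 1 and 2.17 TPM in embryo 2, Kcnj2 at 0.51 and 1.01 TPM, and Kcnj4 had 0 and 7 counts. Kcnj10, the main inward rectifier of mature astrocytes, was the lowest detected member, at 1.20 and 1.18 TPM. The 6 astrocyte markers were mixed: Aldh1l1 stood at 36.26 TPM in embryo 1 and 39.93 TPM in embryo 2, Gja1 at 71.33 and 10.80 TPM and Slc1a2 at 19.30 and 17.47 TPM. Aqp4, at 0.93 and 1.30 TPM, S100b, at 0.90 and 0.91 TPM, and Gfap, at 0.21 and 0.00 TPM, lay under 1 TPM in at least 1 embryo. Kcnj11, the pore of the ATP-sensitive channel, stood at 0.73 TPM in embryo 1 and 0.58 TPM in embryo 2, and the sulfonylurea receptor genes that complete that channel, Abcc8 and Abcc9, at 1.39 and 3.39 TPM in embryo 1 and at 1.88 and 2.48 TPM in embryo 2.

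Of the channels gated by internal calcium or sodium, the BK gene Kcnma1 stood highest, at 13.90 TPM in embryo 1 and 14.80 TPM in embryo 2. BK channels open with calcium and voltage together. Their beta subunit genes split: Kcnmb4, the neuronal one, stood at 15.12 TPM in embryo 1 and 17.29 TPM in embryo 2, Kcnmb2 at 8.69 and 10.01 TPM, and neither Kcnmb1 nor Kcnmb3 was detected. Kcnmb4 shares 20.8% of its exon bases with the antisense gene Kcnmb4os2, at 4.12 and 4.01 TPM. Of 4 BK gamma subunit genes, only Lrrc55 was detected, at 5.26 TPM in embryo 1 and 7.62 TPM in embryo 2. The SK genes, whose channels take part in the afterhyperpolarization, were led by Kcnn2 at 8.57 and 10.82 TPM, with Kcnn1 at 6.10 and 5.69 TPM and Kcnn3 at 4.17 and 4.91 TPM. The fourth, Kcnn4, known from blood cells and epithelia, stood at 0.32 TPM in each embryo. The sodium-activated genes Kcnt1 (Slack) and Kcnt2 (Slick) stood at 8.52 and 2.10 TPM in embryo 1 and at 9.64 and 2.03 TPM in embryo 2.

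The remaining auxiliary genes belong to 3 classes. All 3 Kcnab genes, which encode cytoplasmic beta subunits of Kv1 channels, were detected: Kcnab2 stood at 18.61 TPM in embryo 1 and 21.12 TPM in embryo 2, Kcnab1 at 5.04 and 4.99 TPM, and Kcnab3 at 3.45 and 3.22 TPM. All 7 listed genes of the Kv1 complex at axons (Lgi1, Adam22, Cntnap2, Cntn2, Dlg1, Dlg2 and Dlg4) were detected, among them Cntnap2 at 31.61 TPM in embryo 1 and 58.70 TPM in embryo 2. By TPM, 4 of the 7 were higher in embryo 1, and 3, Cntnap2 among them, were higher in embryo 2. Kcne1l, a single-pass subunit gene on the X chromosome that is also called Kcne5, stood at 21.44 TPM in embryo 1 and 18.65 TPM in embryo 2. None of the other 4 Kcne genes was detected, and Kcne1 had 0 and 3 counts. Kcnrg, known from human cells as a regulator of Kv1 channels, stood at 4.0 and 3.04 TPM.

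**Figure D3:**
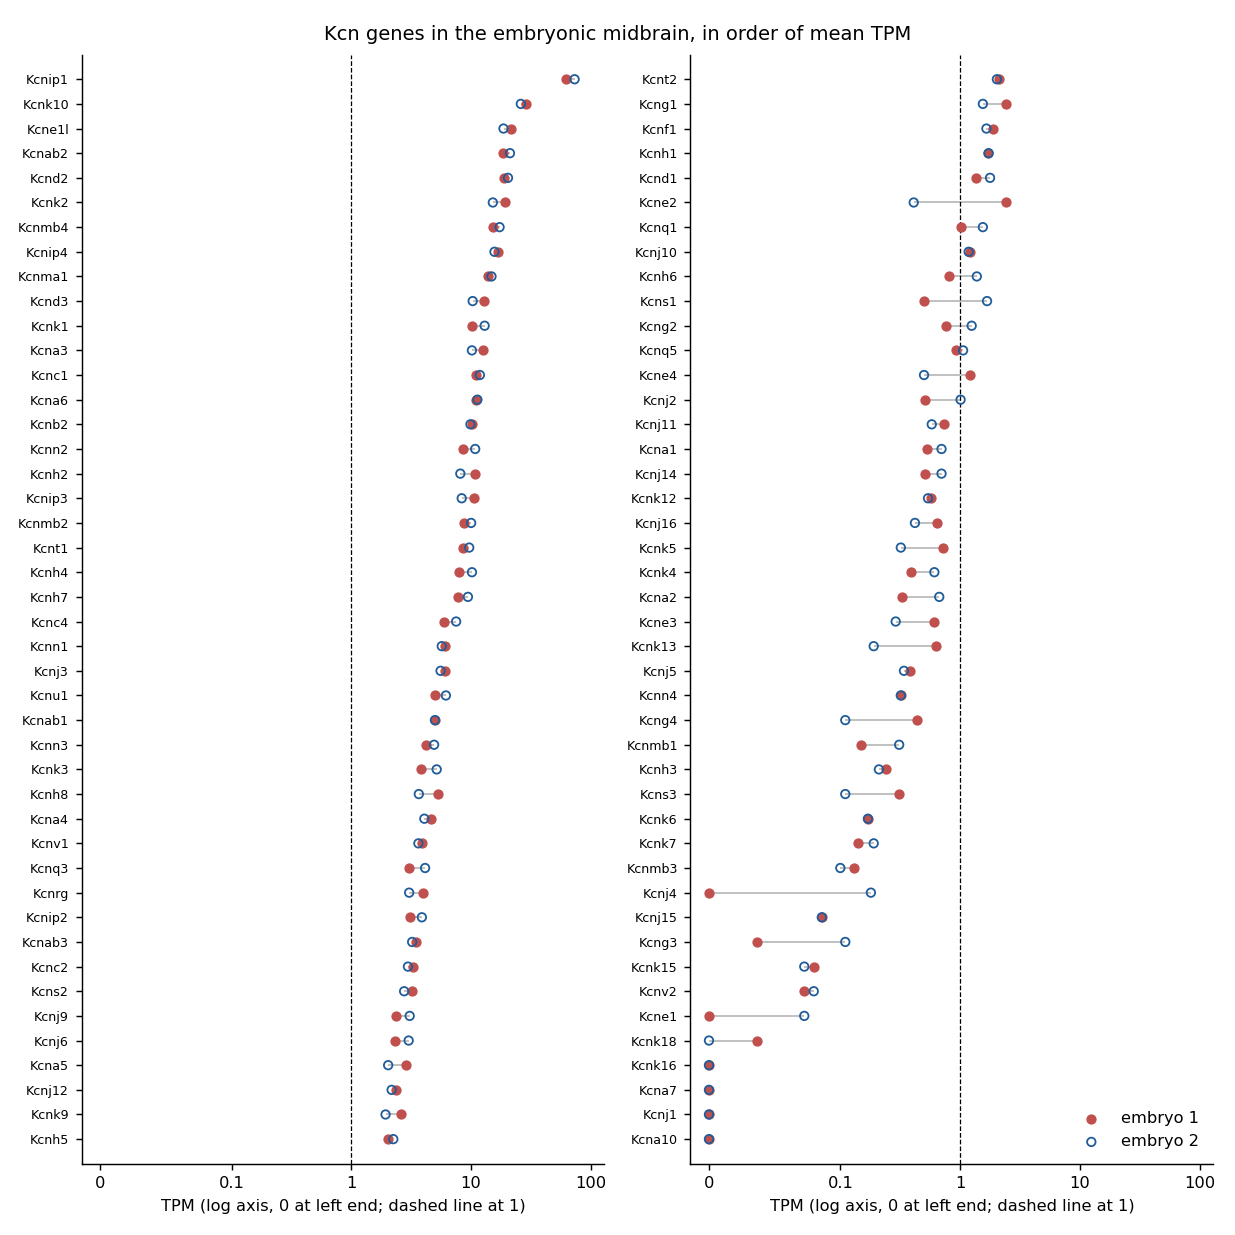
TPM (horizontal log axis, values of 0 at the left end) of 88 members, in order of mean TPM down the left and then the right panel, with filled points for embryo 1 and open points for embryo 2. The points of Kcnk10 lie close together, at 28.51 and 26.02 TPM, and those of Kcne2 lie apart, at 2.40 and 0.41 TPM. Some low members also lie close together, such as Kcnj10 at 1.20 and 1.18 TPM.

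The order of the members holds in broad steps only. Of the 54 pairs of detected members next to each other in the order, 9 did not overlap between the embryos. These included the step from Kcnk10 to Kcne1l and the later steps from Kcnip4 to Kcnma1 and from Kcnh7 to Kcnc4. Across the 92 members, log2(TPM + 1) in embryo 1 and embryo 2 had a Pearson r of 0.982 and a Spearman rho of 0.974, given as a description, since genes are not independent and share their libraries. Near the limit, the 3 lowest detected members were Kcnj10, Kcnq1 and Kcnd1, with mean levels of 1.19, 1.28 and 1.57 TPM. The 3 highest undetected members were Kcne2, Kcnh6 and Kcns1, with mean levels of 1.41, 1.10 and 1.09 TPM, and each had a TPM of at least 1 in 1 embryo. In all, 7 members reached 1 TPM in only 1 embryo, Kcne2 and Kcne4 in embryo 1 and Kcnh6, Kcns1, Kcng2, Kcnq5 and Kcnj2 in embryo 2. No counts were found in either embryo for Kcna7, Kcna10, Kcnj1, known from kidney, and Kcnk16. A floor of 3 counts would allow these 4 genes levels of up to 0.0461, 0.151, 0.0527 and 0.201 TPM in embryo 1 and 0.0462, 0.151, 0.0528 and 0.201 TPM in embryo 2, with counting error only in view.

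Transcripts of the members were then read by type, since a gene's TPM also counts transcripts that encode no channel. These levels are the authors' estimates and divide reads that several transcripts share. Of the 55 detected members, 39 had at least 90% of their TPM on protein-coding transcripts in both embryos, among them Kcnk10, Kcnd2 and Kcnk1, each with 1 transcript. The matching share of all protein-coding genes was not counted, so this number has no background beside it.

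In 3 members less than 50% of the TPM lay on protein-coding transcripts in at least 1 embryo, namely Kcna6, Kcnt1 and Kcnd1. For this rule, too, the share of all protein-coding genes was not counted. Kcna6 had 0.183% in embryo 1 and 0.0885% in embryo 2, but 36.0% and 29.8% by posterior mean TPM, the authors' other estimate of how shared reads divide. The transcript with the highest level was Kcna6-201, at 7.75 and 7.57 TPM (3.69 and 4.09 by posterior mean), which is annotated as a target of nonsense-mediated decay yet holds a coding sequence of 529 codons with the filter, so the annotated type and the channel sequence part ways there. Kcnt1 had 40.0% on protein-coding transcripts in embryo 1 and 34.1% in embryo 2, and 56.7% and 62.9% on transcripts with a retained intron. Kcnd1 had 82.2% and 45.2%, with the rest on a short processed transcript, Kcnd1-202. That transcript rested on few reads, 2.98 expected counts in embryo 1 and 12.15 in embryo 2. The longer coding form, Kcnd1-201, had 110.02 and 79.85, so most counts of the gene were on the coding form in both embryos.

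Some members had protein-coding transcripts without the pore. Kcnu1 (Slo3, known from sperm) stood at 4.96 TPM in embryo 1 and 6.16 TPM in embryo 2, but all of it lay on 2 short transcripts. Kcnu1-202, of 381 codons, stood at 3.08 TPM in embryo 1 and 4.93 TPM in embryo 2, Kcnu1-203, of 160 codons, at 1.87 and 1.24 TPM, and neither holds the filter codons printed above for the gene. The share of TPM on transcripts with the filter was therefore 0% for Kcnu1, and 0.406% and 0.326% by posterior mean TPM. Kcnh7 had 31.0% of its TPM on filter-bearing transcripts in embryo 1 and 23.9% in embryo 2, since its highest transcript, Kcnh7-203, at 3.33 and 3.71 TPM, lacks it. Kcnma1, at 93.1% and 89.7%, lost little by the same count.

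**Figure D4:**
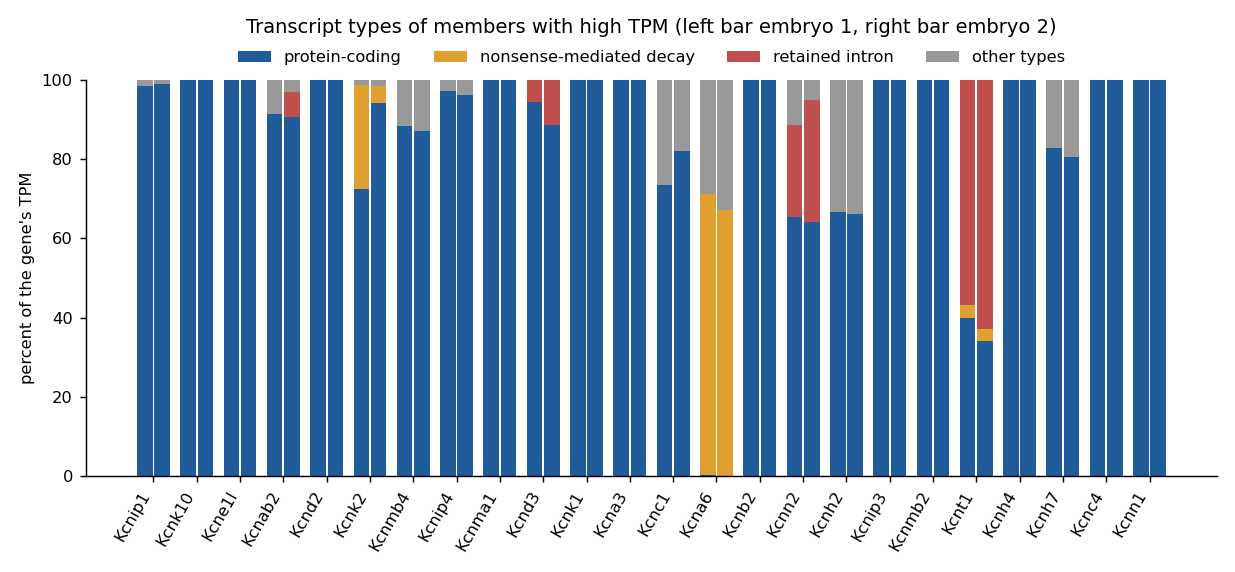
Percent of each gene's TPM (vertical axis) on protein-coding, nonsense-mediated decay, retained-intron and other transcripts for 24 of the 25 members with the highest mean TPM (left bar embryo 1, right bar embryo 2). Kcnk10 and Kcnd2 are protein-coding throughout, while Kcnt1 has 40.0% and 34.1% of this type and Kcna6 0.183% and 0.0885%, against 36.0% and 29.8% by posterior mean TPM.

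The embryos also differed in how the TPM of some genes divided over their transcripts. Kcnk2-203, a decay-type transcript of 152 codons without the filter, stood at 5.01 TPM in embryo 1 and 0.66 TPM in embryo 2, and the main coding form, Kcnk2-202, at 10.15 and 10.58 TPM. Without Kcnk2-203 the levels of Kcnk2 would thus be much closer. For Kcnip4, Kcnip4-208 stood at 3.20 TPM in embryo 1 and 5.95 TPM in embryo 2, and Kcnip4-207 at 5.34 and 2.34 TPM, so the leading form differed. For Kcnip3, Kcnip3-201 stood at 4.45 and 1.99 TPM and Kcnip3-203 at 6.09 and 6.36 TPM. With 1 library per embryo no error of these splits can be given.

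The ratio of embryo 1 over embryo 2 was taken from expected counts scaled with TMM factors, for the 59 members with at least 100 summed counts. Of these, 51 (86.4%) lay within 1.5-fold, next to 86.0% of 12907 protein-coding genes with as many counts. None was at least 2-fold higher in embryo 1, next to 3.56% of protein-coding genes, and 2 were at least 2-fold higher in embryo 2 (3.39%), next to 1.28%. The median absolute log2 ratio was 0.26 over the members and 0.23 over protein-coding genes, so the members as a list varied about as much as other genes. Over 18910 genes the biological coefficient of variation between the libraries was 26.7%. A ratio here compares these libraries, and the 95% intervals below cover counting error only.

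The median log2 ratio of the members was -0.17, next to 0.01 for protein-coding genes, with 16 members higher in embryo 1 and 43 higher in embryo 2. The split depends on the scaling: it was 25 and 34 with factors from the spike-ins, and 26 and 33 for ratios of TPM. Spike-in factors put the protein-coding median at 0.12 and TPM ratios at 0.14. Relative to that median the members lay at -0.18 with TMM, -0.18 with spike-in factors and -0.23 with TPM. In the same libraries 6 of 7 later neuron markers were higher in embryo 2, with a median log2 ratio of -0.25, while all cell cycle and mesenchyme markers were higher in embryo 1. Their part in the members' median was not tested.

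The members at least 2-fold higher in embryo 2 had low levels. Kcns1, a modifier gene, had 25 counts in embryo 1 and 84 in embryo 2, at 0.50 and 1.68 TPM, and was 3.72-fold higher in embryo 2 (95% interval 2.36 to 6.07). Kcnj2 had 52 counts in embryo 1 and 103 in embryo 2 and was 2.19-fold higher in embryo 2 (1.56 to 3.13). For the ratio of TPM it was just under 2-fold. Between 1.5-fold and 2-fold higher in embryo 2 were another 6 members, among them Kcnh6, Kcng2, Kcnj6, Kcnj9 and Kcnu1, with log2 ratios from -0.91 to -0.63. No member with 100 counts was 1.5-fold higher in embryo 1, and Kcng1 came closest with a log2 ratio of 0.44. In both directions together, 86.4% of the members lay within 1.5-fold, next to 86.0% of protein-coding genes. The share of protein-coding genes in each direction at 1.5-fold was not counted, so the split is a description only.

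Below 100 counts, 3 members with at least 50 counts were 2-fold higher in embryo 1. The share of protein-coding genes that pass 2-fold at this lower minimum was not counted, so the number has no background beside it. Kcne2 had 73 counts in embryo 1 and 12 in embryo 2, at 2.40 and 0.41 TPM, a ratio of 5.49 (95% interval 2.96 to 11.1). Kcne2 is known from the choroid plexus epithelium, and the 6 choroid plexus markers summed to 106.16 TPM in embryo 1 and 7.29 TPM in embryo 2, with Ttr alone at 96.31 and 0.37 TPM. By TPM all 6 were higher in embryo 1, but by scaled counts Prlr, with 76 counts in embryo 1 and 130 in embryo 2, was higher in embryo 2. Their part in the result was not tested. Kcne4 had 56 counts in embryo 1 and 23 in embryo 2, a ratio of 2.20 (1.33 to 3.74), and Kcnk5 had 45 and 20 counts, a ratio of 2.03 (1.17 to 3.63). Kcnk13, the THIK-1 gene known from microglia, had 36 counts in embryo 1 and 11 in embryo 2, a ratio of 2.95 (1.47 to 6.43). The 8 microglia and macrophage markers summed to 109.69 TPM in embryo 1 and 41.08 TPM in embryo 2, with all 8 higher in embryo 1, and their part was not tested. Kcna2 had 21 and 43 counts and was 2.27-fold higher in embryo 2 (1.32 to 4.02).

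**Figure D5:**
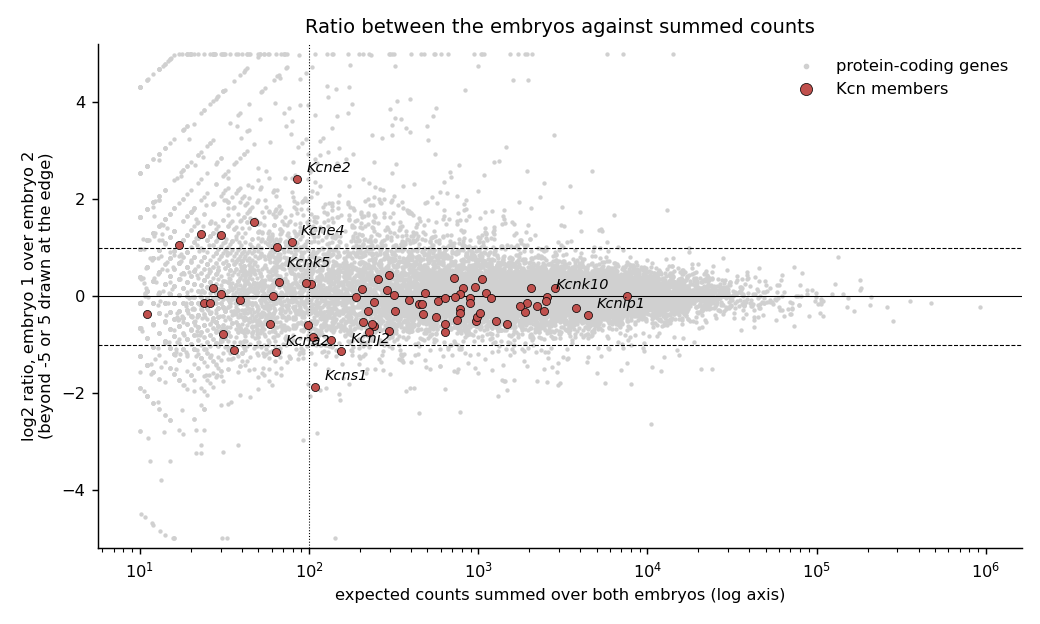
Log2 ratio of embryo 1 over embryo 2 (vertical axis, values beyond 5 drawn at the edge) against summed expected counts (horizontal log axis) for protein-coding genes in grey and Kcn members in red, both with at least 10 summed counts. Dashed lines mark 2-fold and the dotted line marks 100 summed counts; Kcns1 at -1.87 and Kcnj2 at -1.13 lie past it and beyond 2-fold.

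At the top of the order the embryos were close for some members and further apart for others. Kcnk10 had a ratio of 0.991 (95% interval 0.916 to 1.07) and Kcne1l of 1.04 (0.922 to 1.17), and each interval spans 1. Kcnip1, with 2039 counts in embryo 1 and 2404 in embryo 2, had a ratio of 0.766 (0.721 to 0.812), and its Kv4 partner Kcnd2 had 0.838 (0.786 to 0.894). Of the 59 members with at least 100 summed counts, 34 had an interval that left out 1, which says only that counting error is small next to those differences. Intervals were not computed for the other protein-coding genes, so this number has no background beside it.

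Genes that act with potassium channels were read beside them. HCN channels, relatives of the Kcn genes that carry the pacemaker current, had 2 of 4 genes detected. Hcn3 stood at 18.88 TPM in embryo 1 and 23.86 TPM in embryo 2, and Hcn4 at 3.63 and 4.16 TPM. Hcn2, at 0.73 and 1.47 TPM, was the only listed partner or related gene with 100 counts that was 2-fold higher in embryo 2. The sodium-potassium pump, which builds the gradient these channels use, had 6 of 7 genes detected. The Kv2 partners Amigo1, Vapa and Vapb were all detected, with Amigo1 at 8.17 and 8.31 TPM.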

How the data were processed

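Total RNA of 2 midbrains was measured. Per the labels' protocols, RNA over 200 nt was taken with the mirVana method and 10 ng entered each library. The deposited expected counts (estimated reads per gene or transcript), TPM and FPKM are the authors' values, per the file headers, made on mm10 with GENCODE M4, per the deposited text records; no source used here names the quantifier. Posterior mean values served as alternatives. Names, types and coordinates came from GENCODE M21 (GRCm38, the same assembly), which matched 98.0% of Ensembl rows; 84 of 92 members had whole expected counts within 0.005. The unrounded expected counts were scaled with TMM factors of edgeR 4.0.16 (R 4.3.3), which were fitted on counts rounded to whole numbers, with a prior count of 0.5. DESeq2 1.42.0 size factors, total counts and spike-ins were alternatives. Intervals are exact conditional binomial (SciPy 1.17.1). Numeric rows and spike-ins stayed out.

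The members and lists were chosen with earlier results of these data known. Members were named if among the 25 highest, the 2 highest of their class, at least 2-fold apart at 100 counts, or the 3 next to the detection limit on either side; others were accounted for by class. The midbrain, forebrain and hindbrain genes were listed and the filter pattern was narrowed after the data were seen. A count of CG pairs over all member promoters is void, since 67 of 92 members were in the RefSeq table. A few members and partner genes are counted in every total and are not reported singly here.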

Additional observations from a re-analysis of the deposited data

How the results depend on the processing

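With 1 library per embryo and low counts for many members, depth limits the ratios of low genes most. No paired analysis was possible because there is 1 group and no second one to pair with. Ratios could not be computed without a replicate. The number of detected members stayed between 48 and 57 with the limit at 2 TPM, FPKM, posterior mean TPM or protein-coding transcripts alone, was 65 at 0.5 TPM and 59 for the mean, and was 57 to 60 when 1 replicate was left out, but 85 members had at least 1 count in both embryos. The median log2 ratio was -0.063 with spike-in factors. Members at least 2-fold higher in embryo 1 numbered 7 at 10 summed counts and 3 at 50. Those higher in embryo 2 numbered 4 at 10 summed counts, 0 at 500, 1 for ratios of TPM, and 8 at 1.5-fold. The matching shares of protein-coding genes were not counted. FPKM is TPM times 0.585 in embryo 1 and 0.633 in embryo 2, and gave mean sums of 115 for voltage-gated, 108 for auxiliary, 39.6 for 2-pore-domain, 31.5 for calcium- or sodium-activated, 10.8 for inward rectifier and 8.04 for modifier members. Protein-coding transcripts alone gave sums of 156, 170, 62.0 and 41.4 TPM for the first 4 of these groups, which puts the auxiliary group, with a share of 36.9%, above the voltage-gated one. The cause was not tested. Posterior mean TPM gave 18.9 for inward rectifiers and 13.6 for modifiers. The share of Kcna6 on protein-coding transcripts averaged 0.136%, and 32.9% by posterior mean TPM. Filter shares by posterior mean TPM were added after seeing the data.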
